A study of Mus musculus with 6 samples.

Results

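Aquaporins are membrane channels that let water, and in some members glycerol or other small solutes, cross the membrane along their gradients. In the mouse heart Aqp1 is the channel of the capillary endothelium, Aqp4 is known from the cardiomyocyte membrane, and Aqp7 carries glycerol in fat and muscle. Several other members are known mainly from kidney, glands, liver and gut. The values described here are the probe sets annotated to exactly 1 of 10 aquaporin genes, namely Aqp1 to Aqp9 and Aqp11, out of 18193 genes with a probe set of their own. The 10 genes had 22 probe sets. The family was chosen from the fall of Aqp4 in these same arrays, so every Aqp4 value below is a description without a test. The other 9 genes were not chosen by their own values.

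RNA of mouse heart tissue was measured on 6 Affymetrix whole-genome arrays. In 1 group, 3 arrays came from C57BL/6 mice made to express hAT1R, human angiotensin II receptor type 1, in excess. The other 3 came from normal C57BL/6 mice without the transgene. The design text states that animals were matched for age and sex, while neither the transgene's promoter, nor the age, nor the number of founder lines is stated in the labels. The comparison asked which heart transcripts differ in the transgenic line. All values are on a log2 scale, so a difference of 1 is a 2-fold difference in signal, and levels of different probe sets are not comparable amounts of RNA.

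Before the results, the labels need a caution. In the instrument's record, the chip lot field reads "control" for all 3 labelled transgenic arrays, and for the 3 arrays of normal mice it reads "transgene". The groups follow the sample labels, and the typed words would turn the sign of every difference. Nppa, the atrial natriuretic peptide known to rise in the loaded heart, was at 14.42, 14.69 and 14.53 on the labelled transgenic arrays and at 12.69, 12.07 and 12.29 on the others, so the groups did not overlap. Of all tested probe sets 23.0% were without overlap in either direction. No probe set measured the human transgene itself. Xist, the RNA of the inactive X chromosome, was at 9.48, 2.58 and 9.48 on the labelled transgenic arrays and at 2.49, 9.69 and 3.01 on the others. Each group thus held both sexes, but in unequal shares, although the design text states a match for sex. Sex and group are partly confounded. Fluidics station 2 washed 4 arrays, all those labelled transgenic plus non-transgenic array 1, and station 3 washed the rest. A change fitted with the station as a block, or within station 2, therefore rests on non-transgenic array 1 alone for its group. All 3 labelled transgenic arrays were scanned first, so scan order and group cannot be told apart. All 10 cardiomyocyte markers were above background, with a summed level from 18.44 to 18.47 against 18.46 to 18.50 (log2). Myh6, at 15.90 to 16.05, equalled the highest value of every array. Signal so near the top may respond little, which was not tested, so nothing about cardiomyocyte content is read from the sums. None of the 10 markers passed in limma and 0 had an unadjusted p under 0.05, against 0.227% and 18.2% of all genes. The largest changes were those of the calcium release channel Ryr2 at -0.29 ± 0.12 (SE) and of Mybpc3, a myosin-binding protein, at 0.13 ± 0.07. Myl7, the myosin light chain of the atrium, lay between 2.29 and 2.38 on every array, at background. Nothing in the labels says that each array is a separate animal, so a p-value here reflects only how these arrays scatter, which may be technical, and 3 arrays a group limit the precision. Since this is whole tissue, fewer cells of a type and less RNA per cell cannot be told apart.

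No detection calls accompanied the values, so a background level was taken from receptors of the nose, which heart is not known to express. The 95th percentile of their 77 probe sets was log2 3.17. By this level 9 of the 22 aquaporin probe sets, from 6 genes, had a mean above background, namely those of Aqp1, Aqp3, Aqp4, Aqp7, Aqp8 and Aqp11. The nearest probe sets on each side of the level were both of Aqp3, at 3.10 and 3.31. Aqp2, the vasopressin-regulated channel of the kidney collecting duct, Aqp5 of secretory glands, Aqp6 of kidney vesicles and Aqp9, a glycerol and urea channel of liver and leukocytes, had none. Their 8 probe sets lay between 1.95 and 2.93 on all arrays.

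**Figure D1:**
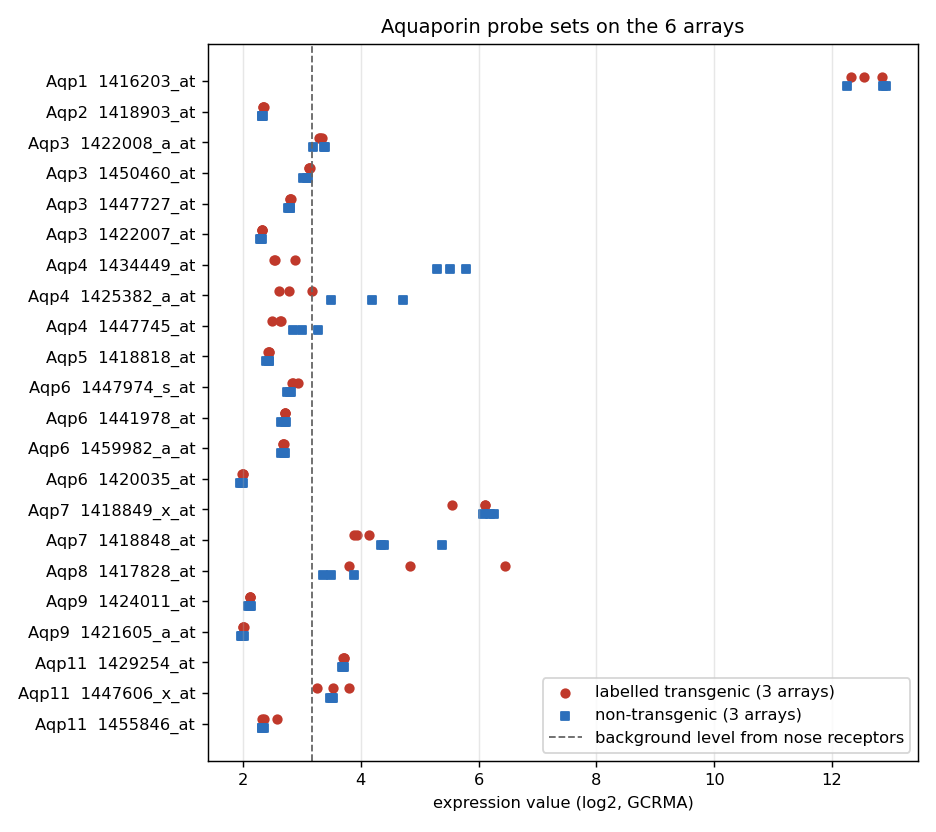
Each row is 1 of the 22 aquaporin probe sets and each point 1 array (log2 value on the x axis, red circles labelled transgenic, blue squares non-transgenic). The dashed line is the background level of log2 3.17. Aqp1 stands far to its right, the 3 rows of Aqp4 show the red points left of the blue ones, and Aqp2, Aqp5, Aqp6 and Aqp9 lie left of the line.

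Aqp4 is the orthodox water channel best known from astrocytes and fast skeletal muscle fibres. Its brightest probe set, 1434449_at, was at 2.89, 2.54 and 2.53 on the labelled transgenic arrays. On the non-transgenic arrays it was at 5.30, 5.51 and 5.79. The groups were far apart, and all 3 labelled transgenic arrays were below background, at 2.65 ± 0.20 (SD, n = 3) against 5.53 ± 0.25. With the background at log2 3.17 the difference was therefore at least 5.14-fold, measured from the non-transgenic mean to that level. With the background at the 99th percentile of the nose receptors, log2 4.28, the bound is lower. The measured means themselves differed by 7.37-fold.

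The other Aqp4 probe sets showed the same order of the groups with smaller differences. The probe set 1425382_a_at was at 2.61, 2.78 and 3.17 against 4.72, 3.50 and 4.19. The labelled transgenic arrays were again at or below background, and with it at log2 3.17 the difference was at least 1.95-fold. With the background at log2 4.28 the non-transgenic mean of 4.14 also lay below it, which leaves no bound. The third, 1447745_at, was at 2.63, 2.65 and 2.50 against 3.00, 2.85 and 3.27. Only its highest value, on non-transgenic array 3, exceeded background, so no fold is given for it. In all 3 Aqp4 probe sets the groups did not overlap. Over the whole array 5.39% of 45037 probe sets were lower in the labelled transgenic group without overlap, and nothing is read from the Aqp4 count because this contrast chose the gene. The 2 brighter Aqp4 probe sets passed the test's brightness filter through the non-transgenic group alone. With the fluidics station as a block the differences of these 2 were -2.65 and -1.87, in place of -2.88 and -1.28. These are differences to non-transgenic array 1 alone.

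**Figure D2:**
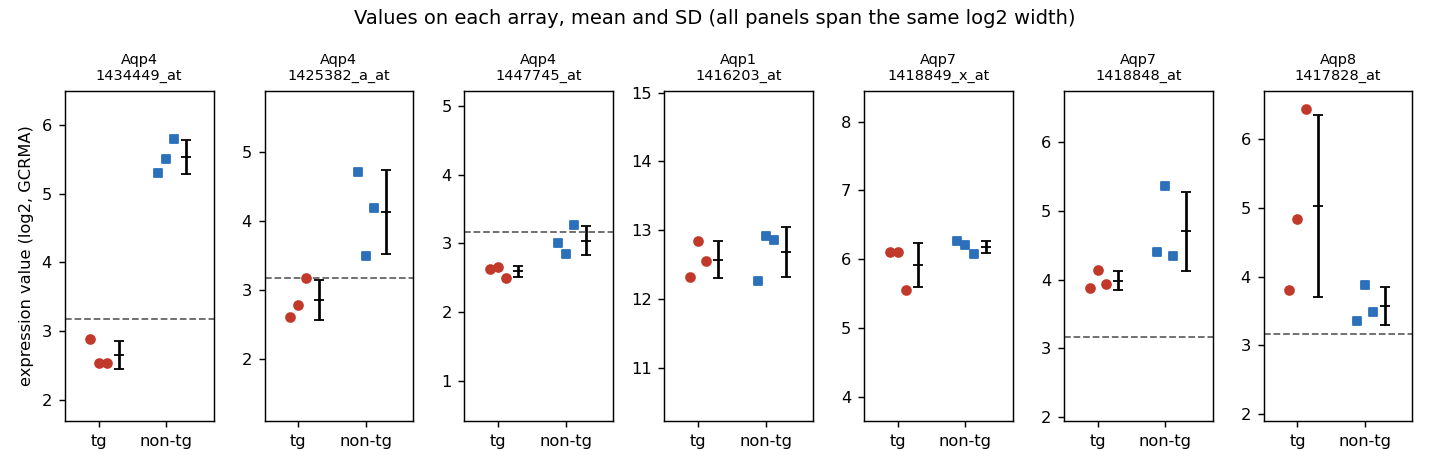
Log2 values on each array (points) with the group mean and SD (black bars) for 7 aquaporin probe sets, labelled transgenic (tg, red) and non-transgenic (non-tg, blue). All panels span the same log2 width, so distances can be compared between panels, and the dashed line is the background level where it lies within the panel. The groups are separate in the 3 Aqp4 panels and in Aqp7 1418848_at, and they overlap in the others.

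Levels of Aqp4 were set beside genes of other cells that use it. Of 12 skeletal muscle genes 6 were at background (Myh1, Myh2, Tnnt3, Actn3, Pvalb and Myod1), and the list's summed level was 14.50 to 14.56 in the labelled transgenic group and 14.54 to 14.75 in the other. That sum was nearly all Ckm, the muscle creatine kinase that heart also expresses, at 14.40 ± 0.02 (SD, n = 3) against 14.57 ± 0.12. None of the list's 6 tested genes passed in limma and 0 had an unadjusted p under 0.05, against 0.227% and 18.2% of all genes. At such shares these counts say little. The glia and nerve list summed to 6.92 to 7.06 against 6.93 to 7.14, and Gfap, S100b and Slc1a3, markers of astrocytes and other glia, were at background. None of its 4 tested genes passed in limma (0 had an unadjusted p under 0.05), which at these shares says as little. The largest changes were those of Aldh1l1 at -0.44 ± 0.28 (SE) and Cdh19 at 0.16 ± 0.10. In the skeletal muscle list the largest were Tnni2 at -0.19 ± 0.17 and Myl1, a light chain also expressed in embryonic heart, at 0.18 ± 0.33.

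The nearest tested genes on either side of Aqp4, the potassium channel domain gene Kctd1 and the cadherin gene Cdh2, changed by 0.06 ± 0.14 and 0.04 ± 0.09 (limma, adjusted p = 0.873 and 0.868). Around all 10 aquaporins there were 14 such neighbours, and none passed in limma (lowest adjusted p = 0.251, with 2 at an unadjusted p under 0.05). Over all 11016 genes tested 0.227% passed and 18.2% had an unadjusted p under 0.05, so nothing is read from these counts. Their changes ran from -0.70 for Smarcd1, a chromatin remodelling subunit next to the Aqp2, Aqp5 and Aqp6 cluster on chromosome 15, to 0.69 for Aldh1a2, a retinoic acid synthesis enzyme next to Aqp9.

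The 5 genes whose profile over the 6 arrays was most like that of Aqp4 were found by the root mean square difference of the centred log2 values. They were Rgs2, a brake on Gq signalling (0.66), Emilin2, an elastic matrix glycoprotein (0.68), Cenpf, a kinetochore protein (0.70), Slc7a1, a cationic amino acid transporter (0.75), and Efnb3, an ephrin ligand (0.77). Rgs2 was at 8.85, 8.02 and 7.31 on the labelled transgenic arrays and at 9.53, 9.91 and 10.06 on the others. Cenpf was at 4.92, 3.40 and 4.57 against 8.47, 7.76 and 7.37, while its other 2 probe sets were below the filter and differed by 0.01 and -0.03. Slc7a1 was at 7.86, 7.10 and 7.18 against 8.81, 8.74 and 8.84. These genes were picked for a pattern that follows the groups, so their differences carry no test.

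Aqp1 lets water through the endothelium of heart capillaries and through the red cell membrane. Its signal was far above background on every array, and its RefSeq promoter window, 250 bases before to 50 after the start, is shown for that reason. Aqp8, a water channel that also passes ammonia and hydrogen peroxide, is shown beside it because it varied most among the members other than Aqp4. Both windows are on the plus strand of GRCm38.p6, chr6:55336049-55336348 for Aqp1 and chr7:123462044-123462343 for Aqp8. Capitals mark, on either strand, the TATA box motif TATAAA, the CCAAT box motif, the Sp1 motif GGGCGG and the Klf motif CACCC, and in these windows no match overlapped another.
Aqp1: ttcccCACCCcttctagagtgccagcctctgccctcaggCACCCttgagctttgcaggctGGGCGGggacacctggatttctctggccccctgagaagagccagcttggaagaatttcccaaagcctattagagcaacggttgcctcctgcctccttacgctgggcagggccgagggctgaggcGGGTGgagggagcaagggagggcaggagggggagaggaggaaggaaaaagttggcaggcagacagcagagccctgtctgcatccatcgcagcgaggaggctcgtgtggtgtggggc
Aqp8: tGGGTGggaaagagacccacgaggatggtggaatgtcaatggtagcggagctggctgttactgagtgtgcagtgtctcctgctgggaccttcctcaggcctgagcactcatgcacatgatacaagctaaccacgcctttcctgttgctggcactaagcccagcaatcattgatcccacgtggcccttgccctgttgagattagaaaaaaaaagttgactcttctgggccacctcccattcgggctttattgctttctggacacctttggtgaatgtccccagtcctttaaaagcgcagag

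The Aqp1 window held 3 matches to CACCC and 1 to GGGCGG, and the Aqp8 window 1 match to CACCC. Of all 32851 windows of this length, 57.5% held CACCC, 35.7% GGGCGG, 37.4% CCAAT and 13.6% TATAAA. GC content was 62.7% for Aqp1 and 52.0% for Aqp8, with 8 and 6 CG dinucleotides, against medians of 52.7% and 7 over all windows. Windows were found for 9 of the 10 genes, namely Aqp1 to Aqp3, Aqp5 to Aqp9 and Aqp11. Among them Aqp5, which was at background, had the highest count of CG dinucleotides, 46, and a GC content of 79.7%. These are descriptions of letters, not of bound sites.

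Aqp1 was at 12.32, 12.85 and 12.55 on the labelled transgenic arrays and at 12.26, 12.92 and 12.86 on the others. The groups overlapped fully, at 12.57 ± 0.27 against 12.68 ± 0.36 (SD, n = 3). Its change was -0.11 ± 0.22 (SE, limma, adjusted p = 0.852), with a 95% interval from -0.64 to 0.42, which leaves room for ratios between 0.643 and 1.34. A block for the fluidics station, which leaves non-transgenic array 1 alone for the contrast, turned its sign, to 0.31. Over the alternatives the adjusted p was 0.434 to 0.988 (limma).

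The endothelial list, whose cells carry Aqp1, summed to 12.81, 12.73 and 12.96 on the labelled transgenic arrays and to 12.69, 12.97 and 12.94 on the others. Both Aqp1 and this list were lowest on non-transgenic array 1 and highest on non-transgenic array 2. All 12 endothelial genes were above background and none passed in limma (0 had an unadjusted p under 0.05, against 18.2% of all genes). The median change of the list was -0.00, against 0.01 over all 11016 genes tested, of which 0.227% passed. Its largest changes were those of the tight junction gene Cldn5 at -0.62 ± 0.45 (SE) and the VEGF receptor Kdr at 0.24 ± 0.20. Red cells also carry Aqp1. Their list, of which 4 of 8 genes were measured and Hba-a1 and Epb42 were at background, summed to 7.47 to 8.36 against 7.86 to 8.31. That sum was mostly Alas2, at 7.17 to 8.20. Hbb-b1 and Hbb-bs had no probe set of their own, so nothing is read about globin RNA. The list's 2 tested genes, the heme synthesis enzyme Alas2 at -0.20 ± 0.28 and the anion exchanger Slc4a1 at -0.02 ± 0.07, did not pass, and 0 had an unadjusted p under 0.05. At the shares over all genes, nothing is read from 2 genes.

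Aqp7, Aqp3 and Aqp9 are aquaglyceroporins, which pass glycerol as well as water. Aqp7 had 2 probe sets above background. Both had a lower mean in the labelled transgenic group, by unequal amounts, and whether they differed from each other was not tested. Averaged over both, Aqp7 changed by -0.49 (limma, adjusted p = 0.19). On 1418848_at it was at 3.88, 4.14 and 3.94 on the labelled transgenic arrays and at 4.40, 5.37 and 4.35 on the others. All 3 labelled transgenic values lay below the others, as in 9.78% of all tested probe sets, and the highest value was on non-transgenic array 2. The change was -0.72 ± 0.28 (SE), or 1.65-fold lower with a 95% interval from 1.03 to 2.64, and it did not pass over all probe sets (limma, adjusted p = 0.284, alternatives 0.19 to 0.674). Without non-transgenic array 2 it was -0.39, and -0.41 with the station as a block.

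The brighter Aqp7 probe set, 1418849_x_at, whose suffix marks probes that may match other transcripts, was at 6.10, 6.10 and 5.55 against 6.26, 6.20 and 6.08. Here the groups overlapped, and labelled transgenic array 3 stood low. Its change was -0.26 ± 0.16 (SE, limma, adjusted p = 0.489), and without labelled transgenic array 3 it was -0.0788. Of the adipocyte genes 6 were at background (Adipoq, Cidec, Retn, Lep, Adig and Car3), which includes the defining adipokines. The 7 measured genes summed to 14.27 to 14.35 in the labelled transgenic group and 14.41 to 14.63 in the other. That sum was nearly all Fabp4, the fatty acid binding protein of fat and capillary endothelium, at 14.30 ± 0.04 against 14.55 ± 0.12. Fabp4, the only adipocyte gene tested, changed by -0.25 ± 0.08 (SE) and did not pass (limma, adjusted p = 0.234, unadjusted p = 0.0241). Its dimmer probe sets 1451263_a_at, 1424155_at and 1425809_at differed by -0.30, -0.54 and -0.53 and did not pass either (limma, adjusted p = 0.33, 0.111 and 0.102). The part of Fabp4 in the Aqp7 difference was not tested.

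Of 12 genes of glycerol handling, 10 were tested and none passed in limma (2 had an unadjusted p under 0.05) and 18.2% of all genes below that mark. In 7 of the 10 the change was negative and the median was -0.16, against 47.6% negative and a median of 0.01 over all genes. Of all genes 0.2% were called higher and 0.0272% lower. The 2 genes were Pnpla2 and Mgll, a monoglyceride lipase at -0.37 ± 0.11 (SE). Pnpla2, the first lipase of triglyceride breakdown, was at 11.10, 11.02 and 10.64 against 11.24, 11.29 and 11.42. Its groups did not overlap, as in 9.78% of all tested probe sets in that direction, lower. Its change was -0.39 ± 0.13 (SE, limma, adjusted p = 0.238). Lipe, hormone-sensitive lipase, changed by -0.44 ± 0.19 (SE, limma, adjusted p = 0.334).

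Aqp3, the glycerol channel of skin and kidney epithelium, had 4 probe sets, of which 1422008_a_at alone had a mean above background. That probe set was at 3.34, 3.30 and 3.29 against 3.19, 3.39 and 3.38, so the groups overlapped, and the change was -0.01 ± 0.08 (SE, limma, adjusted p = 0.953). With the station as a block it became 0.11. The other 3 Aqp3 probe sets stayed between 2.28 and 3.14 on every array. Of 9 lung and epithelial genes 5 were at background (Sftpa1, Sftpb, Scgb1a1, Krt14 and Cdh1), and the list summed to 6.11 to 6.26 against 6.12 to 6.19. Its 2 tested genes, Epcam at 0.24 ± 0.19 and Krt5 at -0.23 ± 0.14, did not pass in limma, and 0 had an unadjusted p under 0.05. Over all genes these shares were 0.227% and 18.2%, so nothing is read from 2 genes.

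Aqp8 varied most among the genes other than Aqp4. It was at 3.80, 4.84 and 6.44 on the labelled transgenic arrays and at 3.35, 3.88 and 3.49 on the others. The groups overlapped, since labelled transgenic array 1 was below non-transgenic array 2, and the labelled transgenic values alone covered a spread of 1.33 (SD) against 0.27. The change was 1.46 ± 0.63 (SE), a 2.74-fold ratio with a 95% interval from 0.943 to 7.98, and it did not pass (limma, adjusted p = 0.329, alternatives 0.164 to 0.651). Without labelled transgenic array 3 it was 0.75, and without labelled transgenic array 1 it was 2.07.

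Aqp8 is also a liver gene, and transcripts of liver differed between the arrays. A list of 12 liver genes, added after the values were seen, summed to 7.77, 8.12 and 9.99 on the labelled transgenic arrays and to 6.97, 9.25 and 9.47 on the others. Alb, serum albumin, was at 5.30, 5.59 and 8.39 against 2.78, 8.05 and 7.93, and Ttr, the thyroxine carrier transthyretin, was at 5.63, 6.43 and 7.73 against 3.83, 6.81 and 7.31. Both were high on labelled transgenic array 3, where Aqp8 was highest, and on non-transgenic arrays 2 and 3, where Aqp8 was at 3.88 and 3.49. Other liver genes stood out mainly on labelled transgenic array 3. Fga, a fibrinogen chain, was at 3.22, 3.20 and 6.08 against 3.13, 3.52 and 4.43, and Fgg, another, at 3.02, 3.03 and 5.26 against 2.94, 3.92 and 3.01. Fgb, the remaining chain, the heme carrier Hpx and the cytochrome Cyp3a11 had means at background but reached 3.81, 4.59 and 5.14 on that array, while Tat was at background on every array. In all, 8 of the 12 liver genes were highest on labelled transgenic array 3, as Aqp8 was. The largest changes of the list were 0.61 for Ttr, at 6.60 ± 1.06 (SD, n = 3) against 5.99 ± 1.88, and 0.48 for Fgg, at 3.77 ± 1.29 against 3.29 ± 0.55. None of the 8 tested liver genes passed in limma and 0 had an unadjusted p under 0.05, against 0.227% and 18.2% of all genes. The part of liver RNA in the Aqp8 values was not tested.

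**Figure D3:**
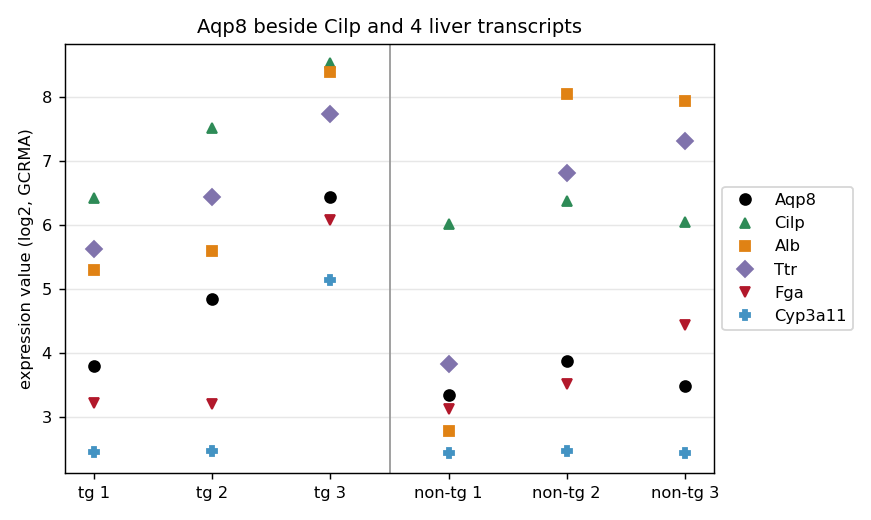
Log2 values of Aqp8 (black), the matrix gene Cilp (green) and the liver genes Alb (orange), Ttr (purple), Fga (red) and Cyp3a11 (blue) on the 6 arrays, labelled transgenic left and non-transgenic right of the line. Levels are compared across arrays within a gene only. Cilp, like Aqp8, is highest on labelled transgenic array 3 and next highest on array 2 of that group. Alb and Ttr are high on labelled transgenic array 3 and on non-transgenic arrays 2 and 3, and Fga and Cyp3a11 are highest on labelled transgenic array 3.

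Aqp11, an unorthodox member of the endoplasmic reticulum membrane, had 3 probe sets and differed by little in each. On 1447606_x_at it was at 3.26, 3.80 and 3.52 against 3.48, 3.52 and 3.51, a change of 0.02 ± 0.14 (SE, limma, adjusted p = 0.957). On 1429254_at all 6 arrays lay between 3.68 and 3.71. That probe set was above background in level but its SD over the arrays was 0.013.

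So small an SD was common among dim probe sets. With an SD under 0.05 called flat, a limit set after the values were seen, 85.7% of the nose receptor probe sets and 40.0% of all probe sets were flat. Of the 22 aquaporin probe sets 11 were flat, and 10 of these had their lowest value on non-transgenic array 1. The median flat probe set was lowest on that array too, at -0.04 from its own mean, against offsets from -0.01 to 0.02 on the other 5 arrays. The flat aquaporin probe sets ranged by 0.03 to 0.13 over the arrays. In 12 of the probe sets below the brightness filter, all those other than that of Aqp4, the group means differed by 0.00 to 0.08. The largest of these, 0.08, were those of Aqp6 1447974_s_at, at 2.83, 2.85 and 2.93 against 2.79, 2.75 and 2.82, and of Aqp11 1455846_at, where labelled transgenic array 3 alone was high at 2.57. The groups did not overlap for that Aqp6 probe set and for Aqp3 1450460_at, at 3.12, 3.14 and 3.12 against 3.09, 3.02 and 3.11. Both were below background on all 6 arrays. The share of all dim probe sets that were higher without overlap was not counted, so nothing is read from them.

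**Figure D4:**
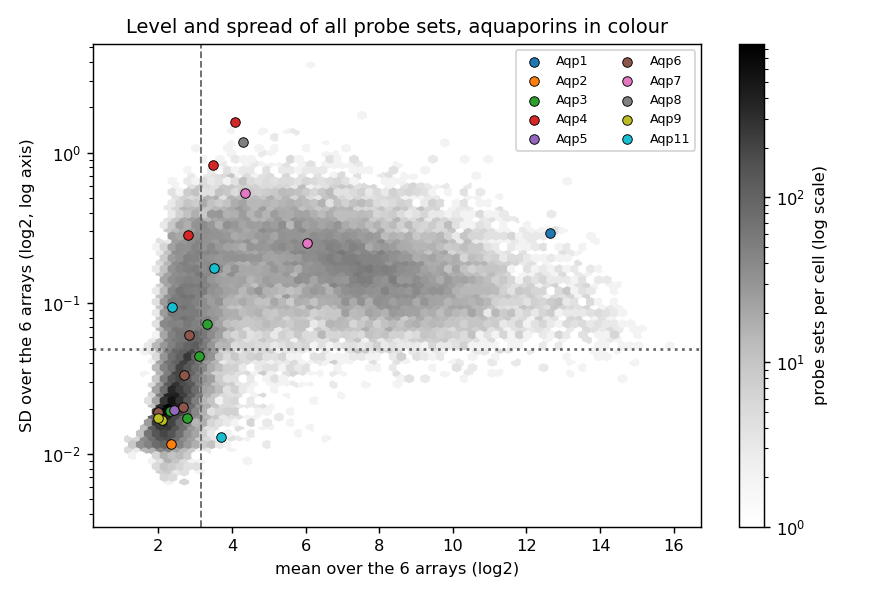
Each grey cell counts probe sets of the whole array by their mean over the 6 arrays (log2, x axis) and their SD over the arrays (log axis, y axis), and the aquaporins are coloured by gene. The dashed line is the background of log2 3.17 and the dotted line the SD of 0.05. Most aquaporin points sit in the dense lower left cloud, while those of Aqp1, Aqp4, Aqp7 and Aqp8 stand away from it.

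Markers of kidney and leukocytes were read beside Aqp2 and Aqp9. All 6 collecting duct and tubule genes (Umod, Slc12a1, Slc12a3, Avpr2, Scnn1b and Scnn1g) were at background beside Aqp2. Of the leukocyte list, the neutrophil genes Csf3r, Mpo and Cxcr2 and the integrin Itgam had means at background beside Aqp9, and the list summed to 7.53 to 8.16 against 7.48 to 7.72. Itgam reached 4.05 and Csf3r 3.19 on labelled transgenic array 1, where S100a8 and S100a9, calcium-binding proteins of neutrophils, were also highest, at 4.97 and 5.35. On non-transgenic array 1 S100a8 and S100a9 were nearly as high, at 4.19 and 5.13, while Itgam and Csf3r were at 2.88 and 2.94. S100a8 changed by 0.51 ± 0.60 (SE) and Ptprc, the pan-leukocyte phosphatase CD45, by 0.31 ± 0.29. None of the list's 3 tested genes passed in limma and 0 had an unadjusted p under 0.05, against 0.227% and 18.2% of all genes. The related channels Mip, the lens aquaporin, and Aqp12, of the pancreas, were also at background on these arrays.

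Besides Aqp4, 7 probe sets of 5 aquaporin genes passed the brightness filter, log2 3.285, and were tested with the whole array. None was called by limma at an adjusted p under 0.05, and 1, of Aqp7, had an unadjusted p under 0.05. Over all 22518 probe sets tested 0.218% were called and 16.4% had an unadjusted p under 0.05. Without overlap between groups there was 1 of the 7, against 23.0% of all probe sets in either direction and 9.78% in its direction, lower. The change was positive in 3 and negative in 4, with a median of -0.01, against 0.00972 over the whole array. At a share of 0.218%, no call among 7 probe sets says little about the family, and nothing is read from it.

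**Figure D5:**
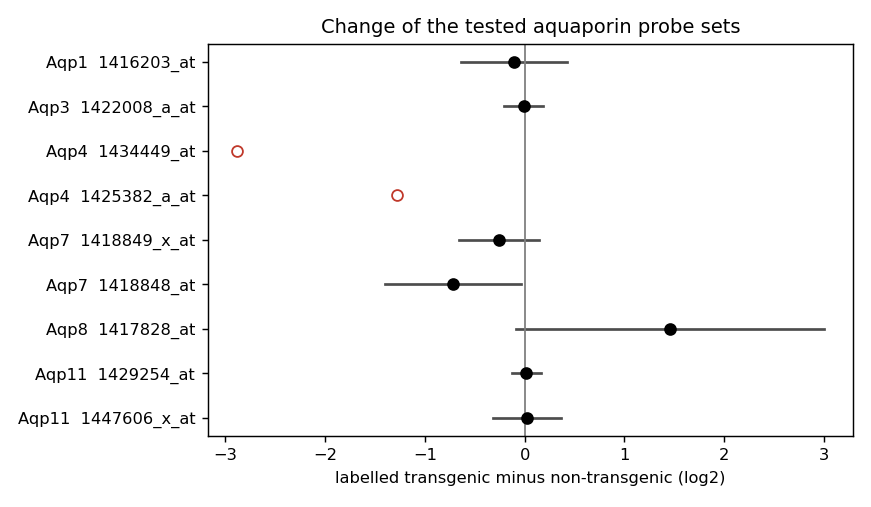
Change of the 9 aquaporin probe sets that passed the brightness filter, labelled transgenic minus non-transgenic (log2). Filled points are limma estimates with 95% intervals for the 7 probe sets other than those of Aqp4, and open points are the Aqp4 differences, shown without an interval because they chose the family. All intervals but that of Aqp7 1418848_at, which ends at -0.04, include 0.

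Aqp4 is held at the membrane by syntrophins of the dystrophin complex, a link between cytoskeleton and matrix. Of 19 genes of this complex and its partners, 14 were tested and none passed in limma (4 had an unadjusted p under 0.05, against 18.2% of all genes). The list's median change was 0.07, and of all genes 0.227% passed. Sntb1, a beta syntrophin, was at 5.06, 5.74 and 5.67 against 4.20, 4.51 and 4.50, a change of 1.09 ± 0.20 (SE, limma, adjusted p = 0.0893). Its groups did not overlap, as in 23.0% of all tested probe sets in either direction. Of the other Sntb1 probe sets, 1436203_a_at differed by 1.20 and 1451938_a_at by 0.05. Dmd, dystrophin itself, was at 9.68, 9.27 and 9.41 against 9.05, 9.06 and 8.99, a change of 0.42 ± 0.11 (SE, limma, adjusted p = 0.171). Its next 2 probe sets both differed by 0.39. Kcnj10, the potassium channel that accompanies Aqp4 in glia, was at background.

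Aquaporins act together with the ion and osmolyte transporters that set cell volume. Of 19 such genes 12 were tested and none passed in limma, against 0.227% of all genes. An unadjusted p under 0.05 was seen for 5, against 18.2% of all genes, and the median change was -0.01. Slc5a3, the sodium and myo-inositol cotransporter that loads cells with an osmolyte, was at 4.65 ± 0.07 (SD, n = 3) against 3.66 ± 0.32, a change of 0.99 ± 0.16 (SE, limma, adjusted p = 0.078), while its other 2 probe sets were below the filter. Stk39, the kinase SPAK that phosphorylates chloride cotransporters, was at 9.67, 9.27 and 9.66 against 10.20, 10.07 and 10.13. Its groups did not overlap, as in 9.78% of all tested probe sets in that direction, lower. Its change was -0.60 ± 0.12 (SE, limma, adjusted p = 0.116), and its second bright probe set differed by -0.42.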

How the data were processed

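The deposited values were log2 expression values, 1 per probe set and array, made by the authors with GCRMA, a background correction and normalization for Affymetrix arrays, per the submitters' processing notes. No version is named. The other deposited files were text records of the instrument, in other units than expression, and gave the fluidics station, scan order and typed chip lot word, per the file headers. The members and gene lists were chosen with earlier results of these data known.

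From 45101 probe sets, 64 controls were left out. Genes were named from the platform annotation, in which 34945 probe sets had 1 gene, 932 several and 9160 none. Probe sets with a mean above the median of all means, log2 3.285, were kept (22518) and fitted with lmFit and eBayes of limma 3.58.1 under R 4.3.3 (2-sided, Benjamini-Hochberg over all 22518). A list gene was read from its brightest probe set, and summed levels are log2 of the summed linear values of all measured genes of a list. All member probe sets were named, the 5 genes most like Aqp4, the nearest tested neighbours, and for each list, as none had a gene past the threshold, the 2 tested genes with the largest change. Other genes were named after their values were seen. The fit was tested on simulated data. Promoter windows are from RefSeq, GRCm38.p6. The highest share of equal values between any 2 arrays was 0.0178%.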

Additional observations from a re-analysis of the deposited data

How the results depend on the processing

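In each alternative run, including every array left out in turn, 0 of the tested aquaporin probe sets other than those of Aqp4 were called by limma, as in the reported fit, where 1 had an unadjusted p under 0.05. Over the whole array the count of 49 calls became 15 with no brightness filter, 143 with a filter at log2 5, 102 with trended and robust variance, 2 with the fluidics station as a block, and 0 within the station that held both groups (3771 at an unadjusted p under 0.05) or with Xist as a term (3126 unadjusted). It ran from 0 to 75 with single arrays left out, 75 without labelled transgenic array 1, 5 without non-transgenic array 1 and 0 without any other (2529 to 3421 unadjusted). The replicate block gave 0 calls (3324 unadjusted) and an Aqp4 change of -2.88, as without it. Deviations of same-numbered arrays correlated at -0.0831, -0.174 and -0.00672, so no pairing by number was seen. These values cannot tell whether same-numbered arrays belonged together in other ways.

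The brightest Aqp4 probe set stayed between -3.0 and -2.75 with single arrays left out and was -2.65 with the station as a block or within that station, but with all labelled transgenic values below background these are differences to a floor, and only a lower bound of the fold can be read. Of the member changes recomputed under an alternative, 125 kept sign and side of the threshold, 4 moved by more than the replicate SD and 9 turned sign. The last were Aqp1 at 0.31 and Aqp3 at 0.11 with the station as a block and within it. With single arrays left out they were Aqp1 (-0.32 to 0.0199), Aqp3 (-0.0775 to 0.0217) and Aqp11 1447606_x_at (-0.12 to 0.16). The 4 that moved were Aqp4 changes in the same station settings. Both settings compare with non-transgenic array 1 alone and gave equal changes, so they are not separate alternatives. The causes were not tested. Aqp8 ran from 0.75 to 2.07 and Aqp7 1418848_at from -0.9 to -0.39. The 9 probe sets above background became 4 at the 99th percentile of the nose receptors, and 9 to 10 with single arrays left out. Those 4 were of Aqp1, Aqp7 and Aqp8, and none was of Aqp4. This count uses the mean over all 6 arrays. On the non-transgenic arrays alone Aqp4 1434449_at, at 5.30, 5.51 and 5.79, was above that level of log2 4.28. With a filter at log2 5 only Aqp1 and the brighter Aqp7 probe set kept a value. Signal near background limits Aqp3, Aqp4, Aqp8, Aqp11 and the dimmer Aqp7 probe set.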

Other observations

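The profile of Aqp8 over the 6 arrays was closest to that of Cilp, a matrix protein of fibroblasts and cartilage, with a root mean square difference of 0.20 after centring. Cilp was at 6.42, 7.51 and 8.52 on the labelled transgenic arrays and at 6.02, 6.37 and 6.05 on the others. Next came Gas2l3, a cytoskeletal linker (0.36), Tmem119 (0.40), Hamp, the iron hormone hepcidin (0.41), and the transcription factor Meox1 (0.42). Cilp changed by 1.33 ± 0.50 (SE) and Gas2l3 by 1.35 ± 0.42. These genes were named after the values of Aqp8 were seen, and their likeness is a description.

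The Aqp7 probe set 1418848_at was closest to Txnip, the thioredoxin-interacting protein that limits glucose uptake, with a difference of 0.13. Txnip was at 11.65, 11.73 and 11.85 on the labelled transgenic arrays and at 12.06, 12.89 and 11.98 on the others. Both were highest on non-transgenic array 2. The second Txnip probe set, 1415996_at, had its highest value, 13.52, on that array too.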
